A study of Caenorhabditis elegans with 10 samples.

Results

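The RNAs described here come from 10 genes of the Ras-ERK pathway of *Caenorhabditis elegans*, and 7 of the 10 are among the 2732 genes the authors list as enriched with 3xFLAG::DLC-1. Of all genes the authors tested 13.4% are listed. Of protein-coding genes that span 4251 bp or more, which include all 7, 34.5% are listed. The members were chosen by name, with the list of enriched genes in view. The choice covers the Ras-to-ERK kinase cascade with its scaffolds, its GTPase-activating proteins and an ERK phosphatase. The members are *let-60*, *lin-45*, *mek-2*, *mpk-1*, *ksr-1*, *ksr-2*, *gap-1*, *gap-2*, *gap-3* and *lip-1*. The table they were looked up in holds only genes that passed the authors' comparison, so being listed and the size of the fold are descriptions and were not tested again.

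The study pulled DLC-1, a light chain of the LC8 family found in the dynein motor and in other complexes, out of whole-worm extract with an anti-FLAG antibody, and sequenced the RNA that came down. Both groups were young adult worms of the genotype 3xFLAG::DLC-1, grown in synchrony on NA22 plates: 5 FLAG immunoprecipitates and 5 inputs that had no antibody. Both groups carry the tag, and no immunoprecipitate from untagged worms was analysed here, so RNA that binds the beads or the antibody cannot be told apart from RNA that came down with DLC-1. Input libraries were primed with oligo-dT and immunoprecipitate libraries were made without enrichment, so library preparation and group cannot be told apart either. The labels number the samples of each group from 1 to 5 without saying whether these were separate cultures, so the authors' errors may measure technical spread alone. The values are those of the authors' comparison across all libraries. No value per library was used here, and the depth of each library is unknown.

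Ras is a membrane-bound switch, active with GTP and inactive with GDP. Active LET-60, the worm Ras, recruits the Raf kinase LIN-45, which phosphorylates the MAP kinase kinase MEK-2, which in turn phosphorylates the ERK MPK-1, while KSR proteins hold the kinases together. RasGAPs end the signal by speeding up GTP hydrolysis, and dual-specificity phosphatases such as LIP-1 remove the activating phosphates from ERK. In the worm the pathway specifies vulval cells in larvae, and in the adult gonad it drives germ cells out of pachytene and oocytes into maturation. The extracts held all tissues. Of the tissue markers looked up, the list holds 2 of 4 germline genes, 3 of 3 body wall muscle genes and 2 of 4 intestinal genes. It also holds 1 of 3 neuronal genes, 1 of 4 hypodermal genes and 0 of 4 sperm genes. Of all genes the authors tested 13.4% are listed, and listing moved with gene span, as given below. The median span was 7528 bp for the muscle genes and 919 bp for the sperm genes. A marker that is not listed may still have been present. In which tissue a member's RNA was bound cannot be told in such extracts.

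The 7 listed members were *lin-45*, *mpk-1*, both KSR genes and all 3 RasGAP genes, and the 3 that are not listed were *let-60*, *mek-2* and *lip-1*. Of the 20328 genes the authors tested, 13.4% are listed, and of the reference, 10.6% of its 19983 protein-coding genes and 5.67% of all its genes. Because the members were chosen with the list in view, nothing is read from the distance between 7 of 10 and these shares. The log2 fold changes of the 7, immunoprecipitate over input, ran from 1.26 to 6.95 with a median of 1.84, a 3.59-fold enrichment, in the authors' deposited table. The same median was 2.13 over all 2732 listed genes and 1.81 over the 2116 listed protein-coding genes. The median member, *ksr-2*, was therefore close to the median listed protein-coding gene, with *gap-3*, *gap-1* and *lin-45* above and the other 3 below. Under stricter rules, 6 of the 7 had a mean of 100 normalized counts or more (8.24% of tested genes are listed with such a mean), 6 had a 95% interval wholly above 2-fold (9.8% of tested genes), and 3 stood at or above 4-fold (7.21% of tested genes). The authors' adjusted p-values for the 7 members, from their one-sided test, lay between 5.89e-147 and 1.37e-07 in the authors' deposited table.

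**Figure D1:**
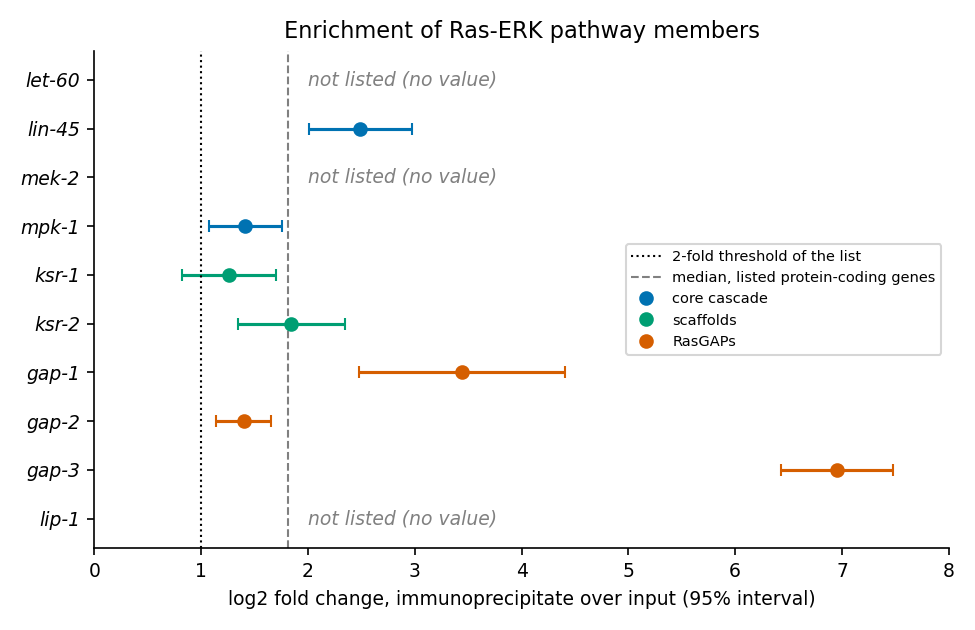
Enrichment, as the log2 fold change of immunoprecipitate over input, for each of the 10 members, with the 95% normal interval from the authors' standard error, coloured by role. The dotted line marks the 2-fold threshold of the list and the dashed line the median of listed protein-coding genes at 1.81. The gene *gap-3* at 6.95 lies to the right of every other member, and *let-60*, *mek-2* and *lip-1* have no value.

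Of the core cascade, the Raf and ERK genes were listed and the Ras and MEK genes were not. *lin-45* (WBGene00003030), which encodes the Raf kinase, lies on chromosome IV from 6742537 to 6748572 of WBcel235. Its log2 fold change was 2.49 ± 0.25 (SE) in the authors' deposited table, or 5.61-fold, with a 95% interval of 4.02-fold to 7.83-fold. *mpk-1* (WBGene00003401), the ERK gene, spans 4216764 to 4228108 of chromosome III. It stood at 1.41 ± 0.18 (log2 fold ± SE) in the authors' deposited table, which is 2.66-fold with an interval of 2.10-fold to 3.38-fold. The intervals of *lin-45* and *mpk-1* do not overlap, with the Raf RNA the higher, and the difference between them was not tested. Both rested on many reads, as the authors' deposited table gives means of 1381 normalized counts for *lin-45* and 1079 for *mpk-1*.

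*let-60* (chromosome IV, 11688227 to 11691088) and *mek-2* (chromosome I, 3005403 to 3013448) carry no value here. A gene outside the list may have been enriched less than 2-fold, unchanged, lower in the immunoprecipitates or too weakly covered to test. The authors' adjusted p-values imply that 762 further genes passed the adjusted p threshold of 0.01 without being listed, and whether any of the 3 absent members is among them is not known. The cascade is therefore seen at its Raf and ERK steps only. The interior of *mek-2* also holds the collagen gene *col-48*, and an edge of it overlaps Y54E10BL.3. The strand setting of the authors' counting is not given in the sources used here, so reads of such overlaps could have been shared or dropped.

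Both scaffold genes were listed, with modest folds. KSR proteins resemble Raf and bind Raf, MEK and ERK, and in the worm *ksr-2* is known to be needed for germ cells to leave pachytene, while *ksr-1* is best known from vulval and other somatic cells. *ksr-2* (WBGene00002240; chromosome I, 12047342 to 12059798) stood at 1.84 ± 0.26 (log2 fold ± SE), or 3.59-fold, in the authors' deposited table. *ksr-1* (WBGene00002239; chromosome X, 8275169 to 8283301) stood at 1.26 ± 0.23 (log2 fold ± SE), or 2.39-fold, in the authors' deposited table. Their 95% intervals, 2.54-fold to 5.08-fold for *ksr-2* and 1.76-fold to 3.25-fold for *ksr-1*, overlap, so the pair is not separated by these errors. *ksr-1* is the member nearest to the 2-fold threshold of the list, and the only one of the 7 whose interval reaches below it. An edge of *ksr-1* overlaps the gene *fis-2* by 27 bp, and *fis-2* is not listed.

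All 3 RasGAP genes were listed, and their folds spread further than those of the cascade and its scaffolds. GAP-3 is known to restrain LET-60 in the germline, and GAP-1 is best known for restraining it during vulval induction. *gap-3* (WBGene00021238) lies on chromosome I from 1988246 to 2010525. Its log2 fold change of 6.95 ± 0.27 (SE) in the authors' deposited table corresponds to 124-fold, with an interval of 86.2-fold to 178-fold. This is the highest fold of the 10 members and the 230th highest of the 2732 listed genes. Of the 229 genes above it, 165 had a mean under 100 normalized counts and 47 others were histone genes. Among the 1540 listed protein-coding genes whose mean reached 100 normalized counts, histones left out, *gap-3* ranked 3. *sydn-1* at 8.19 and C25H3.11, named *vps-13D* in the reference, at 7.10 stood above it (log2 fold; the authors' deposited table). This ranking was added after seeing the data. By the approximate arithmetic given below, *gap-3* would average 5.96 normalized counts in the inputs and 738 in the immunoprecipitates. It would pass the mean filter only through the group where it is high, so nothing is read from rank 3. No other reference gene overlaps *gap-3*. The authors' deposited table gives it a mean of 372 normalized counts.

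*gap-1* (WBGene00001515; chromosome X, 2180888 to 2196512) had the next highest fold of the members. It stood at 3.44 ± 0.49 (log2 fold ± SE), or 10.8-fold, in the authors' deposited table. Its interval is the widest of the 7, from 5.56-fold to 21.2-fold, and its mean in the authors' deposited table, 31.6 normalized counts, is the lowest of the 7. *gap-2* (WBGene00001516; chromosome X, 9472470 to 9516454), which encodes another RasGAP, stood at 1.40 ± 0.13 (log2 fold ± SE) in the authors' deposited table, or 2.64-fold, with the narrowest interval of the 7 at 2.20-fold to 3.15-fold. The 3 intervals do not overlap one another, and the differences were not tested. The reference gives *gap-2* 12 transcripts, against 2 for *gap-3* and 3 for *gap-1*, and the value of a gene sums over whichever of them were present. Overlapping *gap-2* are 5 small non-coding RNA genes and 1 protein-coding gene, none of them listed.

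If each mean is the average over 5 immunoprecipitates and 5 inputs and each fold the ratio of the group means, the authors' figures can be turned back into group means. That arithmetic rests on assumptions that the table cannot check, so the results are approximate. *gap-3* would then average 5.96 normalized counts in the inputs and 738 in the immunoprecipitates. For *gap-1* the same arithmetic gives 5.34 and 57.9, for *gap-2* 338 and 890, and for *mpk-1* 589 and 1568. The high fold of *gap-3* would thus rest on a small input value together with a substantial immunoprecipitate value, while *gap-2* and *mpk-1* would be well covered in both groups.

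**Figure D2:**
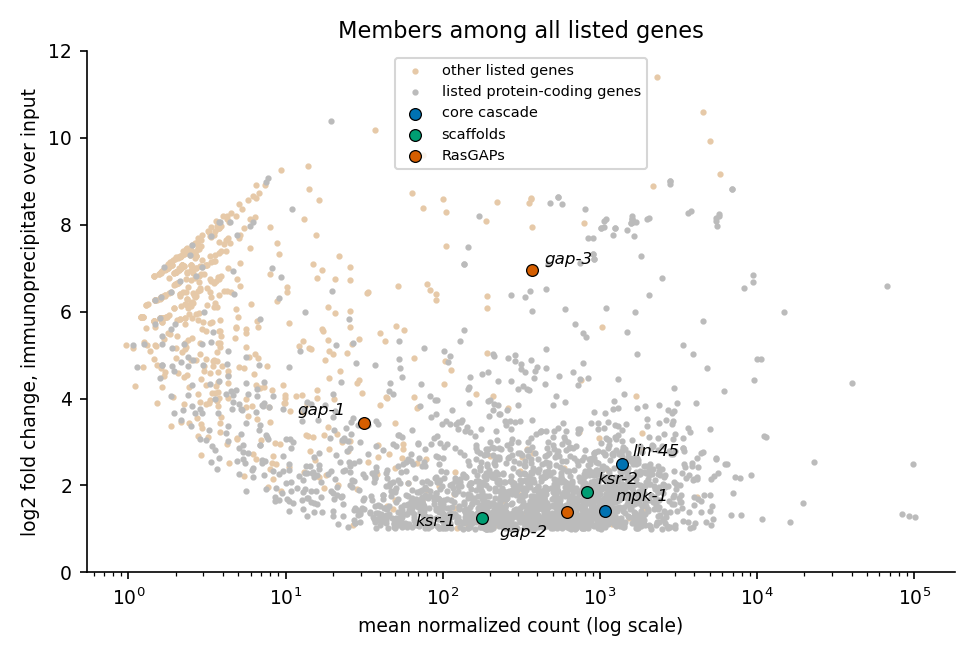
Enrichment, as the log2 fold change, against the mean normalized count (log scale) for all 2732 listed genes, with the 7 listed members coloured by role. The gene *gap-3* combines a mean of 372 with a log2 fold change of 6.95, whereas *gap-1*, at a mean of 31.6, lies among less well covered genes. By the approximate arithmetic in the text, both would average few input counts, 5.96 for *gap-3* and 5.34 for *gap-1*.

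Set side by side, positive and negative regulators overlapped. The 6 genes of the cascade and its scaffolds had 4 listed, with log2 folds from 1.26 to 2.49 and a median of 1.63 in the authors' deposited table. The 4 negative regulators had 3 listed, from 1.40 to 6.95 with a median of 3.44 in the authors' deposited table. The negative regulators thus hold both of the highest folds, *gap-3* and *gap-1*, but *gap-2* lies among the kinases and scaffolds, next to *mpk-1*. *lip-1* (chromosome IV, 6842958 to 6846011), the ERK phosphatase gene and known as a target of the FBF translational repressors, is not listed. Of all tested genes 13.4% are listed. The listed genes of the cascade and its scaffolds had a median gene span of 9739 bp and the listed negative regulators one of 22280 bp. Whether the groups differ was not tested, because the members were chosen from the same values.

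Gene span moved with listing. In the reference, span is the distance from a gene's first to its last base, introns included, since no transcript length was used here. With protein-coding genes divided by span into 5 groups of nearly equal size, 34.5% of the longest group, from 4251 bp upward, are listed, against 10.5% of those from 2458 to 4250 bp and at most 3.33% in each of the shorter 3 groups. All 7 listed members fall in the longest group, as does *mek-2* at 8046 bp. *let-60* at 2862 bp and *lip-1* at 3054 bp are the shortest members and fall in the next group. Among protein-coding genes within 1.25-fold of its span, 82.6% are listed for *gap-2*, 69.5% for *gap-3*, 55.6% for *gap-1*, 44.0% for *ksr-2*, 42.4% for *mpk-1*, 36.7% for *ksr-1* and 25.6% for *lin-45*. For the 3 members that are not listed the same shares are 36.4% for *mek-2*, 9.41% for *lip-1* and 8.18% for *let-60*. Most genes of similar span are thus listed for the 3 RasGAP genes, and most are not for the other 7 members. What part span has in the members' listing was not tested.

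In the span windows around the members, the median fold of listed protein-coding genes mostly rose with span. Listed genes shorter than these windows were not covered, so no trend over all listed protein-coding genes is given. The median log2 fold of listed genes of similar span was 1.52 around *let-60*, 1.72 around *lin-45*, 1.92 around *mpk-1*, 1.97 around *gap-1*, 2.05 around *gap-3* and 2.70 around *gap-2*, from the authors' deposited table. The members did not all stand near those medians. *gap-2*, the longest member at 43985 bp, had one of the lowest folds, and 16 of the 19 listed genes of similar span stood above it. For *gap-3*, at 22280 bp, 1 of the 130 listed genes of similar span had a higher fold. For *gap-1*, 25 of 222 stood higher, and for *lin-45*, 95 of 436. *mpk-1* had 235 of 302 above it and *ksr-1* 347 of 422, and *ksr-2* stood near the middle with 134 of 260. Against genes of like span, *gap-3*, *gap-1* and *lin-45* were therefore on the high side and *mpk-1*, *ksr-1* and *gap-2* on the low side.

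**Figure D3:**
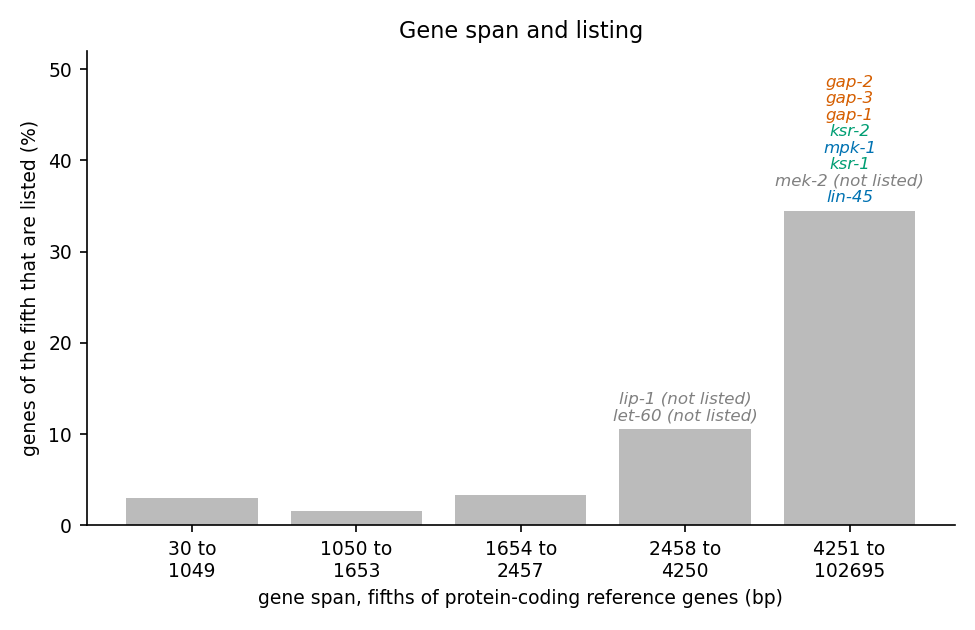
Share of protein-coding reference genes that are listed (bars, in %), in 5 groups of nearly equal size by gene span in bp, with the members written above the group they fall in. The share is 34.5% in the longest group, which holds all 7 listed members and *mek-2*, and 10.5% in the group of *let-60* and *lip-1*.

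Further genes that act on the pathway were looked up in 6 lists with 47 genes, and 21 of them were listed. The 21 had a median log2 fold of 1.75 in the authors' deposited table. Upstream, 1 of 7 genes for receptors, ligands and ligand processing was listed, the EGF receptor gene *let-23* at 1.50 ± 0.23 (log2 fold ± SE; the authors' deposited table). The EGF gene *lin-3*, the FGF receptor gene *egl-15* and the insulin receptor gene *daf-2* were not. Of 6 adaptors and exchange factors 2 were listed, *rgl-1*, for an exchange factor of the Ral GTPase, at 2.52 ± 0.29 and the neuronal exchange factor gene *rgef-1* at 2.49 ± 0.84 (log2 fold ± SE; the authors' deposited table). The genes that link receptors to Ras directly, *sem-5* for the Grb2 adaptor and *sos-1* for the Ras exchange factor, were not listed. These counts are small and lie around or above the 13.4% of all tested genes that are listed, so nothing is read from the genes that are absent.

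Accessory positive regulators had 6 of 11 listed, beside 13.4% of all tested genes. The 3 genes whose products place the EGF receptor at the basolateral membrane of vulval precursor cells were all among them. In the authors' deposited table *lin-7* stood at 5.08 ± 0.38, *lin-10* at 2.75 ± 0.47 and *lin-2* at 2.18 ± 0.37 (log2 fold ± SE). *lin-7* overlaps the gene Y54G11A.17, which is not listed. *cnk-1*, which encodes a scaffold that promotes Raf activation, stood at 1.76 ± 0.17 and *let-92*, for the catalytic subunit of the phosphatase PP2A, at 1.07 ± 0.22 (log2 fold ± SE; the authors' deposited table). *par-1*, at 2.39 ± 0.16 in the authors' deposited table as log2 fold ± SE, had been placed in this list, although its kinase is known in the worm to act against KSR. The Ras-Raf scaffold gene *soc-2* and the PP2A subunit genes *sur-6* and *paa-1* were not listed. The 6 listed genes had a median span of 8447.5 bp and the 5 not listed one of 3779 bp. Of protein-coding genes in the longest span group 34.5% are listed, and what part span has in this count was not tested.

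Negative regulators outside the members had 8 of 12 listed (*lst-3*, counted as not listed, had no match in the reference), at a median log2 fold of 1.57 in the authors' deposited table. *gck-1*, which encodes a germinal centre kinase that keeps ERK activity low in oocytes, was highest at 3.10 ± 0.30, or 8.57-fold (log2 fold ± SE; the authors' deposited table). *ark-1*, for an Ack-related kinase that restrains EGF receptor signalling, stood at 1.95 ± 0.15, and *sli-1*, for the Cbl ubiquitin ligase, at 1.69 ± 0.28 (log2 fold ± SE; the authors' deposited table). *gla-3*, whose zinc finger protein limits ERK signalling in the germline, stood at 1.61 ± 0.18 (log2 fold ± SE; the authors' deposited table). The other 4, *lst-4* at 1.52, *sur-5* at 1.28, the receptor phosphatase gene *dep-1* at 1.26 and *lst-2* at 1.16, had lower folds (log2 fold; the authors' deposited table). With the RasGAP genes and *lip-1*, 11 of 16 negative regulators were listed. Of all tested genes 13.4% are listed, and of protein-coding genes in the longest span group 34.5%. What part span has in these counts was not tested. None of the other 8 listed negative regulators came near the 124-fold of *gap-3*. The 8 had a median span of 7092 bp and the members' RasGAP genes one of 22280 bp, against 5615 bp for all listed protein-coding genes.

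Downstream of ERK, 2 of 7 genes for nuclear outputs were listed. The ETS factor gene *lin-1*, whose product ERK phosphorylates, stood at 1.23 ± 0.30, and *lin-25*, for a Mediator-related protein, at 1.75 ± 0.32 (log2 fold ± SE; the authors' deposited table). Of 4 known germline substrates of MPK-1, 2 were listed, *nos-3* and the Dicer gene *dcr-1*, and *drsh-1* and *syp-2* were not. Both counts are small and stand beside the 13.4% of all tested genes that are listed. *dcr-1* stood at 1.13 ± 0.12 and *nos-3* at 2.28 ± 0.18 (log2 fold ± SE; the authors' deposited table). *lin-25* and *nos-3* lay within the range of the listed kinases and scaffolds, and *dcr-1* and *lin-1* just below it.

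**Figure D4:**
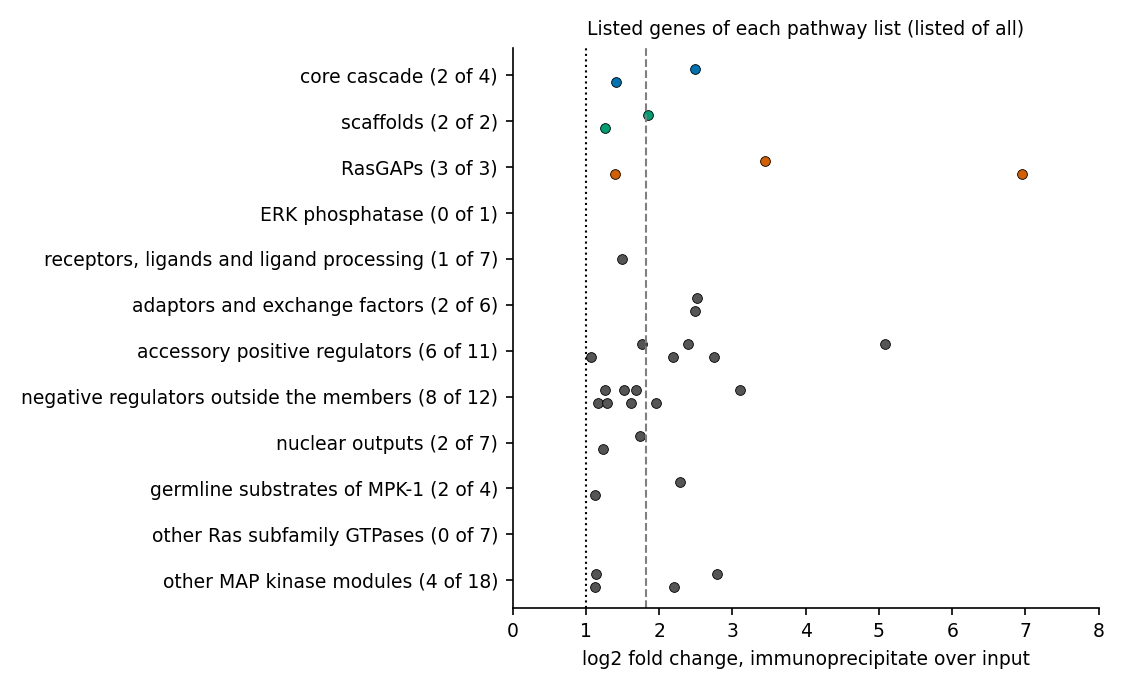
Enrichment, as the log2 fold change of immunoprecipitate over input, for the listed genes of each pathway list, with the number listed of the number looked up after each name. Points are shifted vertically for legibility, the dotted line marks 2-fold and the dashed line the median of listed protein-coding genes at 1.81. Only *gap-3* at 6.95 and *lin-7* at 5.08 lie above a log2 fold change of 4.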

How the data were processed

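RNA from 5 FLAG immunoprecipitates and 5 inputs was sequenced by the authors. Per the submitters' processing notes, the tools were DESeq2 1.12.3, STAR 2.5.2b-0, Bowtie2 2.3.0 and Trim Galore and the builds ce11 and WBcel235, with no roles stated. Per the file headers, the table gives for each gene a mean signal (baseMean, a mean normalized count), the log2 fold change with its standard error, a score (stat), a p-value and an adjusted p-value. The deposited table holds only genes above 2-fold with an adjusted p under 0.01. The number of tested genes, 20328, was recovered from the adjusted p-values, a step tested on simulated data. From the deposited values, 95% normal intervals, ranks and medians were computed with Python 3.11.15, pandas 2.3.3 and SciPy 1.17.1. Names were matched to a RefSeq table of WBcel235 by symbol, then locus tag, then synonym (2660 of 2732; 72 unmatched). Of the 10 members and 72 further pathway genes in 8 lists, *lst-3* alone had no match. The members and lists were chosen with earlier results of these data known. All members are named, with values for the 7 listed, as is each listed gene of the other pathway lists; tissue markers are given as counts. No model was refitted, because no values per library were used.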

Additional observations from a re-analysis of the deposited data

How the results depend on the processing

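All 7 members stayed on the list with an adjusted p under 0.001, and 6 did so when the mean had to reach 100 normalized counts (without *gap-1*) or with the lower interval bound above 2-fold (without *ksr-1*). At or above 4-fold 3 remained, *gap-1*, *gap-3* and *lin-45*, where 7.21% of tested genes are that high. The background share of 13.4% became 5.67% over all reference genes and 10.6% over protein-coding genes. In the 5 span groups, chosen after seeing the data, it was 3.02%, 1.60%, 3.33%, 10.5% and 34.5% from short to long. The members' median log2 fold change was 1.63 with that mean filter and 2.08 as a weighted mean.

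Ranks by fold among 2732 listed genes, and then among 2116 protein-coding ones, were 230 and 66 for *gap-3*, 792 and 290 for *gap-1*, 1138 and 585 for *lin-45*, 1611 and 1036 for *ksr-2*, 2094 and 1501 for *mpk-1*, 2113 and 1520 for *gap-2*, and 2318 and 1717 for *ksr-1*. By the lower interval bound, ranks were 73 for *gap-3*, 689 for *gap-1*, 954 for *lin-45*, 1796 for *gap-2* and 1892 for *mpk-1*. With the mean filter and without histones, added after seeing the data, *gap-3* ranked 3. By the approximate arithmetic above, *gap-3* would pass that filter only through its immunoprecipitate value. Fewer genes ranked, by construction, lower the rank numbers. No paired analysis was possible because no values per library were used, and for the same reason leaving out each replicate was not run. Depth limits *gap-1* most, with a mean of 31.6 normalized counts.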

Other observations

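Regrouping the kinase cascades by step, a grouping made after the values were seen, gave counts to set beside the 13.4% of all tested genes that are listed. Of 6 MAP kinase kinase kinase genes 4 were listed, *lin-45*, *nsy-1*, *mlk-1* and *mtk-1*. In the authors' deposited table *nsy-1*, which starts the p38 cascade of worm immunity, stood at 2.79 ± 0.32, *mlk-1*, which acts in a stress cascade, at 2.20 ± 0.33 and *mtk-1*, a MEKK4-related gene, at 1.12 ± 0.13 (log2 fold ± SE). Of 5 MAP kinase kinase genes 0 were listed, and of 9 MAP kinase genes 1 was, *mpk-1*. Of the 2 phosphatase genes *vhp-1*, whose product acts on JNK-like and p38 kinases, was listed at 1.14 ± 0.14 (log2 fold ± SE; the authors' deposited table), while *lip-1* was not. The counts for MAP kinase kinase and MAP kinase genes are near the share of all tested genes. None of the 8 Ras subfamily GTPase genes looked up, *let-60* included, was listed, which at 8 genes is also near that share.

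Span differed between these groups too. The 8 GTPase genes had a median span of 2620.5 bp, the 5 MAP kinase kinase genes 4303 bp and the 8 MAP kinase genes that are not listed 4598.5 bp. The 4 listed MAP kinase kinase kinase genes had a median span of 7789 bp and the 2 that are not listed one of 6071 bp. The part of span in these counts was not tested, and the counts are small.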
